A study of Mus musculus with 24 samples.

Results

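The genes described here encode the subunits of the proteasome. They were all genes of the deposited table whose symbol was Psma, Psmb, Psmc or Psmd followed by a number, without the immunoproteasome forms Psmb8, Psmb9 and Psmb10, which gave 36 of the 53465 genes listed. Of these, 16 belonged to the core particle (Psma and Psmb) and 20 to the regulatory particle and its assembly (Psmc and Psmd). The rule used names only, so the levels of the genes did not decide which were included.

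The proteasome is the main protease of the cytosol and nucleus and degrades proteins tagged with ubiquitin chains. Its core is a barrel of stacked rings: alpha subunits form the outer rings and the gate, beta subunits form the inner rings, and 3 of the beta subunits carry the proteolytic sites. The regulatory particle caps the barrel, where its lid and ubiquitin receptors bind the substrate and remove the chain and its ring of ATPases unfolds the protein and feeds it into the core. The transcription factors Nfe2l1 and Nfe2l2 are known to raise subunit transcripts together, and several clock proteins are themselves degraded by the proteasome.

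The study asked whether the circadian clock of the blood-brain barrier endothelium drives daily changes in transcript levels. CD31-labelled cells were sorted from the brain of 1 mouse per library, and total RNA was sequenced with a strand-specific low-input kit. Control mice carried the floxed Bmal1 allele alone (Bmal1fl/fl, strain C57BL/6J by label), and mutant mice carried the same allele with Tie2cre. The floxed allele was thus shared by all 24 mice, and ages were not given for the sequenced mice. Each genotype had 12 mice, 2 at each of zeitgeber time (ZT) 2, 6, 10, 14, 18 and 22 h, with lights on from ZT0 under 12 h of light and 12 h of dark. Tie2cre is active in endothelial cells and also in blood-derived cells, so it is not a deletion in brain capillaries alone. Arntl, the gene that encodes BMAL1, had 1 to 468 reads in the control mice (median 166.5) and 81 to 354 in the mutant mice (median 242.5). A gene total counts reads from every exon and does not measure the deleted exon, so it was no check of the deletion.

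The totals were 6136404 to 6648311 reads per library. Markers of endothelial cells were abundant, with means of 7400 reads for Pecam1, the sorted antigen, and 6223 for Cdh5 in controls. The 8 libraries of ZT6 and ZT18 stood apart from the other 16. They had consecutive library numbers in the labels, but the numbers of most other libraries followed on from these without a gap. The numbers thus do not mark the 8 as a batch. The first ZT2 control and both ZT14 mutant libraries had numbers far below the rest. The 8 shared 1 of the 2 i5 indexes with the control libraries of ZT2 and ZT10. Summed microglial markers (8 genes) were 181 to 303 CPM (reads scaled to a common library total) in these 8 libraries and 1571 to 4262 in the other 16, and mitochondrially encoded genes took 2.68 to 3.90% against 5.78 to 17.4% of reads. The ZT14 control libraries had the lowest scaling factors (0.873 and 0.896, all others 0.957 to 1.04). In sorted bulk cells, fewer cells of a type and less RNA per cell cannot be told apart.

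Of the 36 genes, 35 passed the filter on low values (5 or more reads in at least 6 libraries of a genotype). The exception was Psmb11, the catalytic beta subunit restricted to the thymus, with 0 reads in all 24 libraries. Together the 36 genes took 0.142 to 0.228% of the reads of a library.

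Levels were compared between genes as CPM per kb of annotated exon. In control mice the core had a median of 17.5 and the regulatory particle of 16.9, so the medians of the particles were close, and their genes spread over a wide range. In the alpha ring Psma6 was highest at 33.8 ± 8.64 (SD, n = 12) and Psma2 lowest at 9.73 ± 2.54, a 3.47-fold range over the 7 genes. Psma8, the form of the alpha ring known from the testis, was far below them at 2.66 ± 1.49.

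In the beta ring Psmb6, the caspase-like catalytic subunit, was highest at 21.2 ± 4.34 (SD, n = 12) and Psmb3 lowest of the detected genes at 7.34 ± 2.41. The other catalytic subunits were at 17.9 ± 5.57 for Psmb5, which has the chymotrypsin-like site, and 10.6 ± 2.77 for Psmb7, which has the trypsin-like site. On this length the means of Psmb5 and Psmb6 differed by less than the SD over mice of either gene. The difference within libraries was not tested.

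The base of the regulatory particle was the most abundant group. Its non-ATPase subunits had a median of 32.9 and its ATPases of 26.0, against 12.8 for the lid and 4.16 for the chaperones that assemble the base. Psmc1 was the highest ATPase at 48.2 ± 8.11 (SD, n = 12) and Psmc2 the lowest at 8.77 ± 2.22. Psmd7, the partner of the deubiquitinase in the lid, was highest of the Psmd genes at 44.3 ± 6.94, with the ubiquitin receptor Psmd4 next at 43.6 ± 5.49. Their means differed by less than the SD over mice of either gene, and the difference within libraries was not tested. The lowest Psmd gene was the chaperone Psmd9 at 1.69 ± 0.787.

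**Figure D1:**
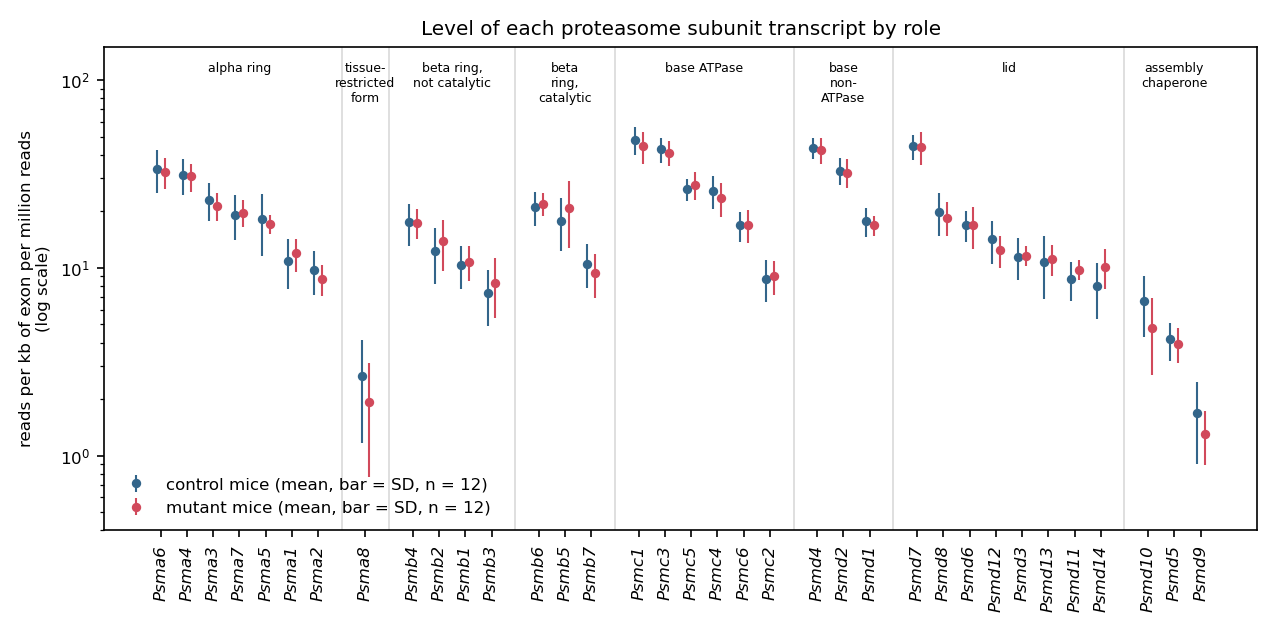
CPM per kb of exon (log scale) for the 35 detected subunit genes, grouped by role and ordered by level within a role; points are means and bars SD over 12 control (blue) and 12 mutant (red) mice. The SD bars of the genotypes overlap for every gene, and Psma8 and the 3 assembly chaperones lie below the structural subunits.

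The order depended on the length used. Annotated exons can include retained introns and long alternative ends. With the longest coding transcript as length the core median was 26.9 and the regulatory particle median 27.2 in controls. Psmd4 then came first at 69.7 in place of Psmc1. In the alpha ring Psma4 (63.3) and Psma7 (51.0) came above Psma6 (40.0), with Psma2 still lowest. In the beta ring Psmb2 was lowest at 17.2, and the order of the catalytic genes became Psmb6 (49.6), Psmb7 (31.1) and Psmb5 (17.9), with Psmb5 and not Psmb7 at the lower end. Of the ATPases Psmc3 (61.2) came above Psmc1 (58.5), with Psmc2 still lowest. The 3 chaperones and Psma8 stayed below every other detected member on both scales.

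Over the 12 control mice of all time points, spread was smallest for the base. The coefficient of variation of reads ran from 10.96% for Psmd4 to 54.4% for Psma8. Its median was 14.9% in the non-ATPase base, 16.2% in the ATPases, 24.3% in the lid and 25.5% over the core. In mutants the smallest value was instead that of the lid subunit Psmd11 at 10.7%, and the ATPases ran from 14.4 to 20.6%. Between mice of 1 genotype and time, the alpha subunit Psma7 had the smallest SD, 0.125 on the log2 scale. Counting error alone would give a median of 5.34% in the regulatory particle and 6.66% in the core. It leaves out differences between mice, time points and groups of libraries, so no conclusion is drawn from it.

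The first comparison asked whether subunit transcripts differed between mice with and without endothelial Bmal1. None of the 35 genes was called (edgeR quasi-likelihood test with time point as a factor, adjusted p under 0.05), where 0.271% of all 15493 genes tested were called, and DESeq2 also called 0 members (0.639% of all genes). At an unadjusted p under 0.05 edgeR gave 1 member, where 6.95% of all genes passed. The median log2 fold change, mutants against controls, was 0.00 in the core and -0.05 in the regulatory particle, beside 0.00 over all genes. The estimate was above 0 for 8 of 15 core genes and 6 of 20 genes of the regulatory particle, where 50.6% of all genes tested were above 0.

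The data limited how large a difference could have gone unseen. The 95% interval of the log2 fold change lay within -0.5 and 0.5 for 28 of the 35 genes and within -1 and 1 for 33. The wider intervals were those of Psma8 and of the chaperone Psmd10, which also had the fewest reads of the members tested together with Psmd9. A p above the threshold does not show that the genotypes had equal levels.

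The gene with the smallest p was Psmd14 (chr2:61711694-61800376, plus strand, GRCm38), the metalloprotease of the lid that cuts the ubiquitin chain from the substrate. It had 69 to 220 reads in controls (median 133.5) and 98 to 237 in mutants (median 182.5). On reads without the scaling factors the mutant mean was higher at 6 of 6 time points, but the ranges of the groups overlapped widely. The means were nearly equal at ZT14 (106.5 in mutants, 106 in controls) and ZT10 (202 and 198.5). The ZT14 controls had the lowest scaling factors (0.873 and 0.896), which raise their scaled values, so the order at ZT14 may depend on the scaling. The log2 fold change was 0.34 ± 0.15 (SE), with an unadjusted p of 0.0341 and an adjusted p of 0.648 by edgeR. The next in order were the lid subunits Psmd11 at 0.18 ± 0.10 (adjusted p = 0.778) and Psmd12 at -0.18 ± 0.12 (adjusted p = 0.828).

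The catalytic subunits did not pass the test in either direction. Psmb5 had 34 to 145 reads in controls (median 102.5) and 70 to 197 in mutants (median 107), a log2 fold change of 0.18 ± 0.20 (SE). Psmb6 had 190 to 332 reads in controls (median 245) and 215 to 322 in mutants (median 257), a log2 fold change of 0.05 ± 0.11. Psmb7 had 169 to 383 reads in controls (median 204.5) and 146 to 356 in mutants (median 192), a log2 fold change of -0.18 ± 0.15. For each of the 3 genes the ranges of the genotypes overlapped, and the adjusted p-values by edgeR were 0.924, 0.973 and 0.877. With single libraries left out, the log2 fold change ran from 0.09 to 0.34 for Psmb5, from 0.01 to 0.10 for Psmb6 and from -0.28 to -0.09 for Psmb7. Over the other settings it ran from 0.06 to 0.42 for Psmb5, from -0.39 to -0.08 for Psmb7 and from -0.05 to 0.24 for Psmb6. The sign of Psmb6 turned within the 16 libraries of ZT2, ZT10, ZT14 and ZT22 (-0.05) and without both ZT14 control libraries (-0.005).

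The 4 non-catalytic beta subunits all had estimates above 0, from 0.00 to 0.18, and the 3 non-ATPase base subunits and the 3 chaperones all had estimates below 0, from -0.07 to -0.04 and from -0.49 to -0.09. None of these estimates passed the test, and their signs were not kept under every setting. Without the ZT14 controls 2 of the 4 non-catalytic beta subunits were above 0 (Psmb1 at -0.01 and Psmb4 at -0.11), and with DESeq2 3 of the 4 were. Within the ZT6 and ZT18 libraries 2 of those 4, 2 of the 3 base subunits (Psmd2 at 0.03 and Psmd4 at 0.06) and 1 of the 3 chaperones (Psmd5 at 0.31) were above 0, and with the i5 index Psmd2 was at 0.05. Psmd10, an ankyrin-repeat chaperone also known as gankyrin, had the lowest estimate at -0.49 ± 0.31, with 27 to 94 reads in controls and 2 to 64 in mutants, so 1 mutant library was nearly without reads. Its estimate was -1.35 within the ZT6 and ZT18 libraries, which include that library, and -0.10 within the other 16.

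**Figure D2:**
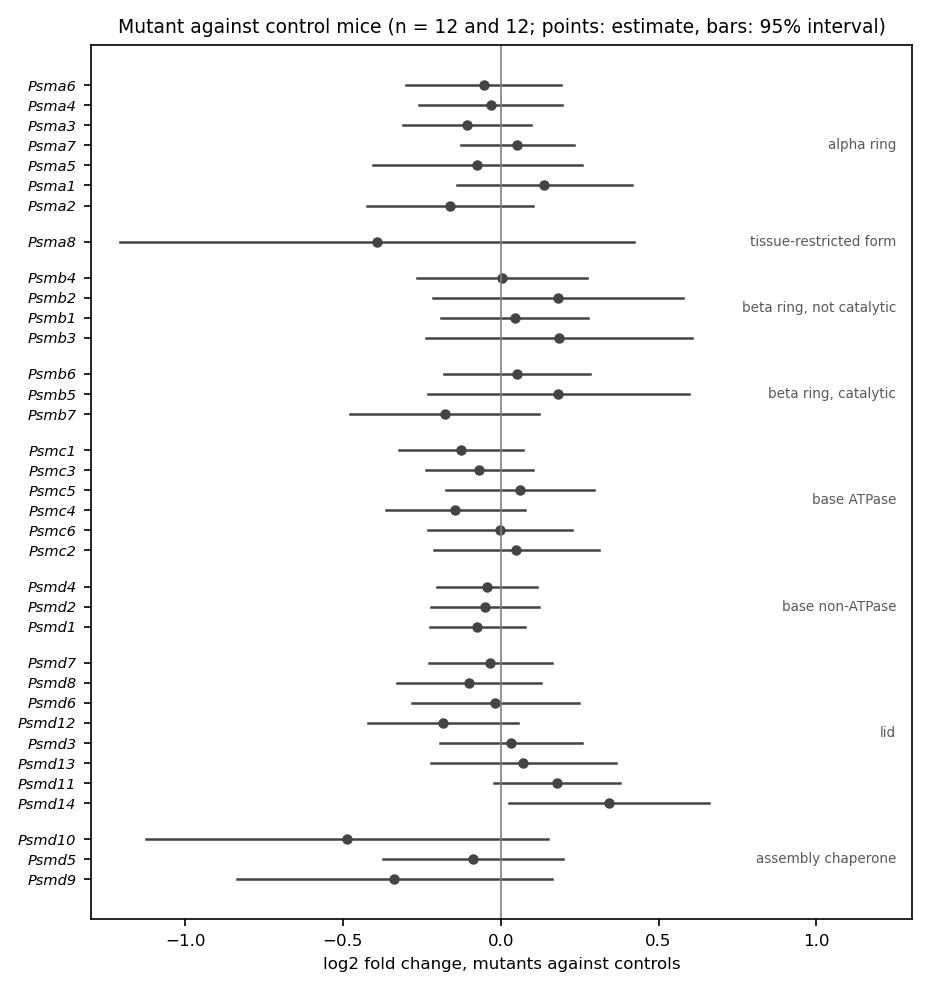
Log2 fold change of each subunit gene, mutants against controls (edgeR; points are estimates, bars 95% intervals, 12 mice per genotype), grouped by role. Only the bar of Psmd14 does not reach 0, from 0.03 to 0.66, and its adjusted p is 0.648.

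Core and regulatory particle were then set against each other in each library. The mean log2 level of the 15 core genes was 4.93 ± 0.22 (SD, n = 12) log2 CPM in controls and 4.92 ± 0.16 in mutants. That of the 20 regulatory genes was 5.64 ± 0.13 and 5.58 ± 0.14. The difference, core minus regulatory particle, was -0.70 ± 0.12 in controls and -0.67 ± 0.15 in mutants, so the genotypes differed by 0.03, less than the SD of 0.10 between mice of 1 genotype and time. Without the 3 assembly chaperones the sign turned, with a difference of -0.02, also within that SD. The ranges, -0.93 to -0.46 and -0.97 to -0.45, lay over each other. Single low genes weighed on such means: Psma8 had 0 reads in the mutant library at -0.97, and Psmd10 had 2 reads in the mutant library at -0.45. Without Psma8 and Psmd10 the ranges were -0.83 to -0.48 in controls and -0.78 to -0.45 in mutants, and the genotypes differed by 0.04. These means are not corrected for length and describe balance between libraries, not a ratio of particles.

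Over time the difference moved in no common direction in the genotypes. At ZT6 it was -0.75 in controls and -0.45 in mutants, and at ZT18 it was -0.54 and -0.79. Without Psma8 and Psmd10 it was -0.72 and -0.55 at ZT6, and -0.55 and -0.70 at ZT18. The regulatory mean of mutants at ZT6 was 5.46 with all 20 genes and 5.70 without Psmd10, which had 2 and 31 reads in these mice. Leaving out Psmd10, a low gene, raised this mean in other groups too. It went from 5.76 to 5.87 in ZT6 controls and from 5.48 to 5.63 in ZT14 mutants. Each such value rests on 2 mice and was not tested.

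**Figure D3:**
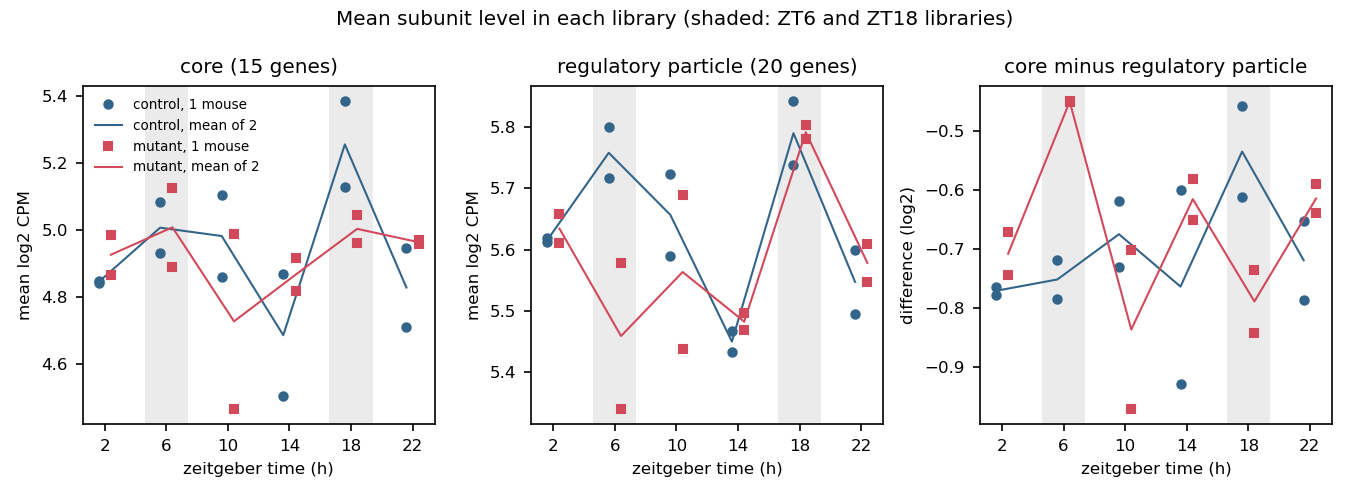
Mean log2 CPM of the 15 detected core genes (left) and the 20 regulatory genes (middle), and their difference (right), in each library by zeitgeber time; points are single mice, lines join the means of 2 mice, and the ZT6 and ZT18 libraries are shaded. Core levels peak in ZT18 controls at a mean of 5.26, while ZT14 controls lie lowest of the controls at 4.69.

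The next question was whether any subunit varied over the day. With a factor for the 6 time points, edgeR called 1 of the 35 genes, Psma7, where 13.4% of all genes were called, and 5 members had an unadjusted p under 0.05, where 23.7% of all genes did. The share of members called was thus below the background. Psma7 encodes an alpha ring subunit (unadjusted p = 0.000374, adjusted p = 0.00522). With the i5 index as a covariate Psma7 was no longer called (unadjusted p = 0.0183, adjusted p = 0.162). In that fit edgeR called 0 members and 2 had an unadjusted p under 0.05, where 6.72% and 16.9% of all genes did. In the fit without this covariate, the smallest p-values after Psma7 were those of Psmd1 (adjusted p = 0.119) and Psmd12 (adjusted p = 0.145). Within the 16 libraries of ZT2, ZT10, ZT14 and ZT22 edgeR called 0 members and 2 had an unadjusted p under 0.05, where 1.14% and 10.1% of all genes did. Within the 8 of ZT6 and ZT18 it called 0 and 3 had an unadjusted p under 0.05, where 0.0581% and 5.27% of all genes did. Psma7 had unadjusted p-values of 0.385 and 0.549 there. Without the second ZT10 control library Psmd8 was called as well, which made 2, where 2069 of 15372 genes were called.

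The libraries of ZT6 and ZT18 were also set against the other 4 time points. These 2 time points lie 12 h apart, and any difference cannot be told apart from other differences of these libraries, such as the cell makeup described above. Called were 5 of the 35 genes, all higher in the ZT6 and ZT18 libraries, where 16.7% of all genes were called and 5.85% were called higher. The 5 genes came from different places in the complex: the alpha subunits Psma7 and Psma3, the ATPase Psmc3 and the lid subunits Psmd8 and Psmd12.

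The promoters of these genes are shown because the genes were higher in the same libraries. The RefSeq promoter table (GRCm38.p6) held entries for 29 of the 36 genes, 31 promoters in all. Psmc3 was not among them. Each run has 200 bases on the strand of the gene, 5′ to 3′, and ends 50 bases before the annotated start. Capitals mark matches on either strand to the letters searched, which were CACGTG (E-box), CCAAT (NF-Y box), TGACNNNGC (antioxidant response element), GGGCGG (GC box) and TATAAA.
Psma7, chr2:180042515-180042714, minus strand: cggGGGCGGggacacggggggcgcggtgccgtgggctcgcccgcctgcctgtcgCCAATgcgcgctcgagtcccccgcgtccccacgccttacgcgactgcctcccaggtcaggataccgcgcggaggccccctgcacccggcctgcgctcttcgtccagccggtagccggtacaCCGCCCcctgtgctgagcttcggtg
Psma3, chr12:70974373-70974572, plus strand: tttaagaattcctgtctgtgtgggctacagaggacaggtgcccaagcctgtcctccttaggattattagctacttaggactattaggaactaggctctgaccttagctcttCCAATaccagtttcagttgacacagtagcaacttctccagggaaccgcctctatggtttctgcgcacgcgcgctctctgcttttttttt
Psmd8, chr7:29180724-29180923, minus strand: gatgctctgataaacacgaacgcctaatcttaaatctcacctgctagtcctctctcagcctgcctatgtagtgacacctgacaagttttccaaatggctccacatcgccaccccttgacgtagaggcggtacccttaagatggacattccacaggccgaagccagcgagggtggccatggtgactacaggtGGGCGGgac
Psmd12, chr11:107479278-107479477, plus strand: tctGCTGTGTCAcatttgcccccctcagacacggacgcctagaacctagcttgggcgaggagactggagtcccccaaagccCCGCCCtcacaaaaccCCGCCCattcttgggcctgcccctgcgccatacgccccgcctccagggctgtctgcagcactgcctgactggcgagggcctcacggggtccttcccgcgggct

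None of the 4 runs held the E-box letters, the site known to bind BMAL1 with its partner CLOCK. The GC box matched 2 times in Psma7, 2 in Psmd12 and 1 in Psmd8, the NF-Y box 1 time each in Psma7 and Psma3, and the antioxidant response element, the site of Nfe2l1 and Nfe2l2, 1 time in Psmd12. Bases G and C made up 75.5% of the Psma7 run, 67% of Psmd12, 54% of Psmd8 and 47.5% of Psma3. Over the full windows of 300 bases, the E-box was found in 2 of the 31 member promoters (Psma4 and Psmd9) and in 7.15% of all 32851 promoters of the table. The GC box was in 18 of 31 (58.1%, all promoters 35.7%), the NF-Y box in 12 (38.7%, all 37.4%), the antioxidant response element in 5 (16.1%, all 12.4%) and the TATA box in 3 (9.68%, all 13.6%). The 5 with the antioxidant response element were Psmb5, Psmb6, Psmc6, Psmd9 and Psmd12. These are matches of letters within the window and not bound sites.

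Of the called genes, Psma7 had the largest estimate. In controls the 2 mice had 301 and 295 reads (ZT2), 445 and 448 (ZT6), 320 and 412 (ZT10), 315 and 341 (ZT14), 477 and 554 (ZT18), and 244 and 303 (ZT22). In mutants they had 347 and 328 (ZT2), 405 and 490 (ZT6), 364 and 391 (ZT10), 339 and 306 (ZT14), 419 and 455 (ZT18), and 341 and 368 (ZT22). All 8 ZT6 and ZT18 libraries lay above the other 16, apart from 1 control mouse of ZT10 whose 412 reads exceeded the lowest of the 8, and on the TMM-scaled values the groups did not overlap.

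Psma7 was 1.39-fold higher (95% interval 1.22 to 1.59), a log2 fold change of 0.48 ± 0.09 (SE), adjusted p = 0.000238 by edgeR. The direction was the same in each genotype, with a log2 fold change of 0.58 in control libraries alone (adjusted p = 0.0216) and 0.38 in mutant libraries alone (adjusted p = 0.0617). It stayed called whichever single library was left out.

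The ATPase Psmc3 (chr2:91054009-91066369, plus strand) had 686 to 859 reads in the 8 libraries (median 778) and 475 to 828 in the other 16 (median 617.5). Every one of the 8 lay above the median of the 16, and 6 of the 16 lay above the lowest of the 8. Its log2 fold change was 0.26 ± 0.08 (SE), adjusted p = 0.0292 by edgeR. Psmc3 shares exon bases with Slc39a13 on the opposite strand.

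Psmd8, a lid subunit, had 320 to 515 reads in the 8 libraries (median 426.5) and 223 to 494 in the 16 (median 329), with 7 of 8 above the median of the 16. Its log2 fold change was 0.35 ± 0.12 (SE), adjusted p = 0.0327 by edgeR. Psmd12, a scaffold subunit of the lid, had 191 to 324 reads (median 246.5) and 143 to 303 (median 197.5), a log2 fold change of 0.36 ± 0.13 and an adjusted p of 0.0468. In controls its ZT18 mice had 322 and 324 reads, the highest of the 24, while the ZT6 mice at 232 and 259 lay within the range of the other time points.

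Psma3, an alpha subunit, had 447 to 782 reads in the 8 libraries (median 615) and 362 to 658 in the 16 (median 502.5). Its log2 fold change was 0.30 ± 0.11 (SE), adjusted p = 0.0483 by edgeR. Its groups overlapped as those of Psmc3, Psmd8 and Psmd12 did. Psma3 transcripts have 4 annotated near copies, among them the processed pseudogene Gm13835, identical over 665 bases, with a mean of 71.0 reads, and Gm609 with 76.0 reads, so the split of reads between these genes is uncertain.

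**Figure D4:**
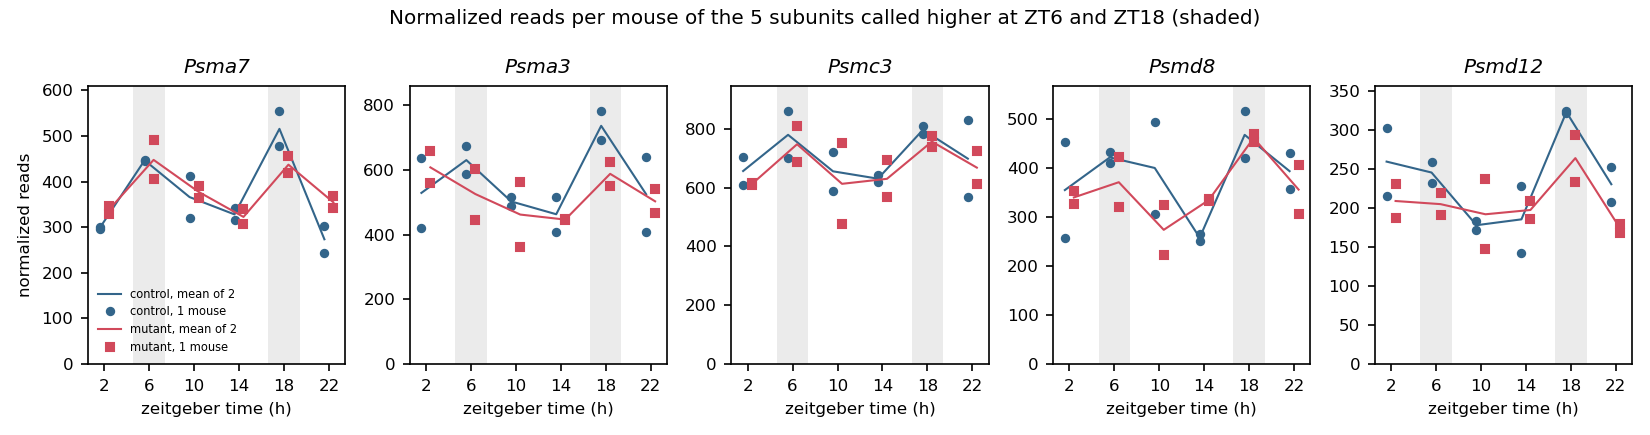
Normalized reads per mouse of Psma7, Psma3, Psmc3, Psmd8 and Psmd12 by zeitgeber time in controls (blue circles) and mutants (red squares); points are single mice, lines join means of 2 mice, and ZT6 and ZT18 are shaded. Psma7 is above 400 reads in each shaded library and in 1 unshaded library, a ZT10 control with 412 reads. The other 4 genes also overlap between shaded and unshaded time points.

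The calls other than Psma7 were close to the threshold. In control libraries alone edgeR called Psma7 only (6.87% of all genes), and in mutant libraries alone it called 0 members (9.91% of all genes), with 3 at an unadjusted p under 0.05 (20.7% of all genes). Leaving out 1 library brought the count from 5 to 3 for the first ZT2, second ZT6, first and second ZT10, second ZT14, first ZT18 and first ZT22 control libraries and the first ZT14 and first ZT22 mutant libraries, 2 for the second ZT18 library of either genotype and 1 for the first ZT18 mutant library. Over all genes these fits called 2352 to 2654 of 15343 to 15412 tested. DESeq2 called 4 of the 5 and not Psma3 (19% of all genes). With the i5 index as a covariate Psma7 alone was called (adjusted p = 0.0379, 6.47% of all genes called). In that fit the log2 fold changes were 0.31 ± 0.13 (SE) for Psmc3, 0.36 ± 0.16 for Psma3, 0.38 ± 0.20 for Psmd12 and 0.25 ± 0.18 for Psmd8. Each SE was larger than without the covariate, so the lost calls do not show that these differences went away.

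Most of the other subunits had estimates on the same side. Of the 35 genes, 32 were above 0, 13 of 15 in the core and 19 of 20 in the regulatory particle, while 49.4% of all genes tested were above 0. The median log2 fold change was 0.17 in the core and 0.15 in the regulatory particle, beside -0.01 over all genes. With the i5 index as a covariate 26 of the 35 were above 0, 12 of 15 in the core and 14 of 20 in the regulatory particle, and the regulatory median was 0.08. In mutant libraries alone 27 of the 35 were above 0. Without the first ZT6 control library the core median was 0.27. By role the median was 0.24 in the alpha ring, 0.20 in the lid, 0.15 in the non-ATPase base, 0.11 in the ATPases, 0.11 and 0.07 in the non-catalytic and catalytic beta subunits, and 0.02 in the chaperones. The highest estimate was that of Psma8, 0.67 ± 0.40, which did not pass the test (adjusted p = 0.307). The 3 genes below 0 were Psmb2 (-0.28 ± 0.20), Psmb7 (-0.04 ± 0.16) and Psmd10 (-0.24 ± 0.33), and none of the 3 passed the test. A library of ZT6 or ZT18 had 12 to 29 of the 35 genes above their own median over the 24 libraries (median 24), and a library of the other time points 8 to 24 (median 14).

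Markers of other cells moved with this comparison. Beside the microglial values given above, astrocyte markers (7 genes) were at 747 to 1215 CPM in the ZT6 and ZT18 libraries and 1671 to 3300 in the rest, oligodendrocyte markers (6 genes) at 360 to 723 and 841 to 2714, and smooth muscle markers (5 genes) at 506 to 1177 and 117 to 673. Endothelial markers (10 genes) were at 20459 to 21685 and 13228 to 18700, and those groups did not overlap. The part of these differences in the subunit values was not tested.

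**Figure D5:**
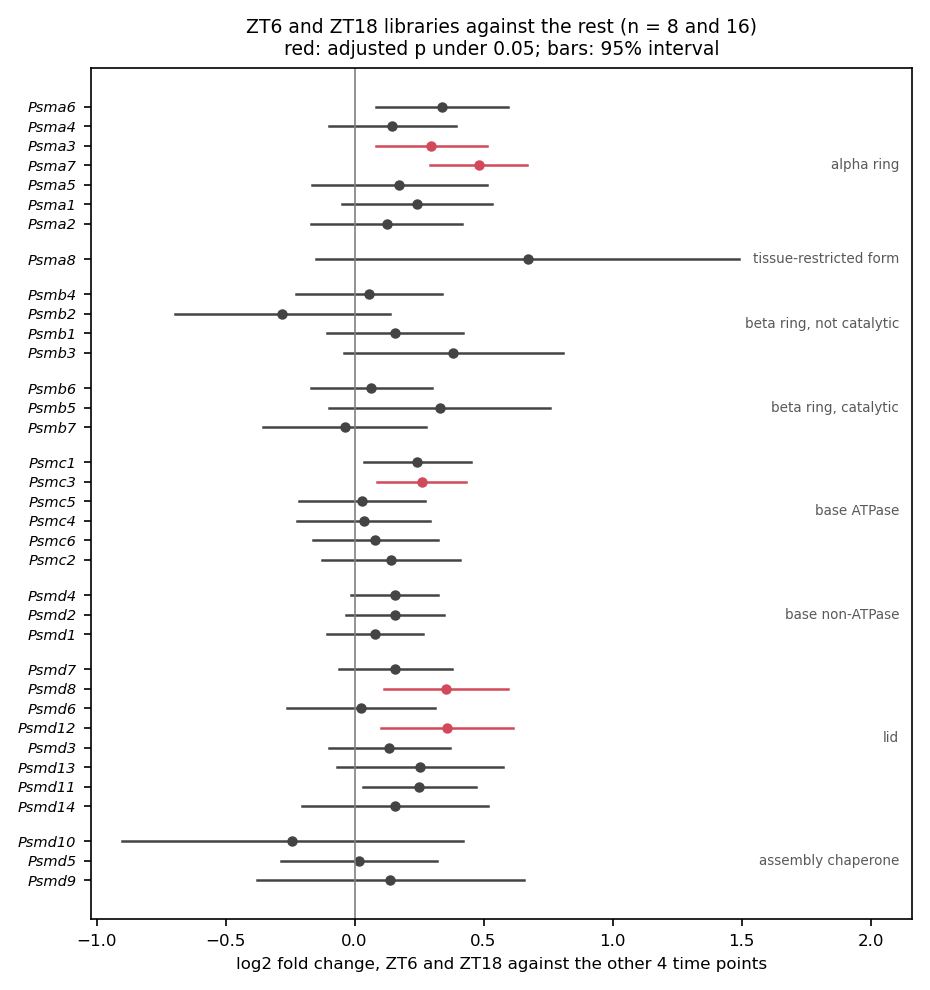
Log2 fold change of each subunit gene in the 8 ZT6 and ZT18 libraries against the other 16 (edgeR; points are estimates, bars 95% intervals), by role, with the 5 genes of adjusted p under 0.05 in red. Points lie right of 0 for 32 of 35 genes, and most bars cross 0.

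A 24-h rhythm was sought in each genotype with the meta2d test, which joins JTK_CYCLE and Lomb-Scargle p-values. In control mice 0 of 35 members had p under 0.05 (2.43% of all genes) or q under 0.6 (0.31%), and a 24-h cosine fitted in edgeR also gave 0 at an unadjusted p under 0.05 (4.43%). In mutant mice meta2d gave 0 members at p under 0.05 (2.27% of all genes) and 0 at q under 0.6 (0.0387%), while the edgeR cosine gave 2, Psmd2 and Psmd7, at an unadjusted p under 0.05 (4.16%).

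The smallest p in controls was that of the lid subunit Psmd3 (meta2d p = 0.0788, with the exact null distribution for its JTK statistic). Its control mice had 464 and 434 reads (ZT2), 322 and 485 (ZT6), 229 and 328 (ZT10), 211 and 321 (ZT14), 400 and 345 (ZT18), and 337 and 438 (ZT22). Both ZT2 mice were high, the highest single mouse was at ZT6 and the lowest at ZT14. The estimated peak was at ZT1.00 with an amplitude of 24.3% of the mean, and on TMM-rescaled values the exact JTK null gave a meta2d p of 0.454. In mutants its values stayed between 316 and 424 reads with an amplitude of 2.73%. Next in controls by meta2d, with the same exact JTK null, were Psmc4 (p = 0.317) and Psmd11 (p = 0.423).

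In mutants the smallest p was that of Psmd2, the large base subunit that docks ubiquitin shuttles (meta2d p = 0.0624, exact JTK null). Its mutant mice had 719 and 729 reads (ZT2), 731 and 811 (ZT6), 673 and 709 (ZT10), 711 and 808 (ZT14), 1115 and 905 (ZT18), and 929 and 938 (ZT22). The 4 mice of ZT18 and ZT22 lay above the other 8. In controls the highest value, 1133, was also at ZT18, but the other ZT18 mouse had 717. Psmd7 (p = 0.175) and Psmc4 (p = 0.249) followed, also with the exact JTK null.

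Single libraries moved these counts by 1 member. In controls 1 member had p under 0.05 without the second ZT6 or the first ZT22 library (Psmd3) and without the second ZT18 library (Psmd11). In mutants 1 member did without the first ZT2 or second ZT6 library (Psmd2) and without the first ZT22 library (Psmd7). Over all genes, 317 to 528 of 15354 to 15402 tested had p under 0.05 in these fits.

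Whether the genotypes differed in rhythm was tested directly. For a difference in the 24-h cosine, edgeR called 0 of the 35 members, where 0% of all genes were called, and 0 members had an unadjusted p under 0.05, where 4.26% of all genes did. DESeq2 called 0 members and 0.00645% of all genes. The smallest unadjusted p-values were 0.0504 for Psmd2, 0.0578 for Psmd3 and 0.181 for Psmd14 (edgeR, adjusted p = 1.00 each). The different amplitudes of Psmd3 and Psmd2 in the genotypes were therefore not shown to differ.

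For a genotype effect that differs among time points with no waveform assumed, edgeR called 0 members (0.0129% of all genes), none had an unadjusted p under 0.05 (5.22%), and DESeq2 called 0 members (0.51%). The smallest p-values were 0.111 for Psmc1, the ATPase whose tail helps open the gate of the core, 0.18 for Psmd2 and 0.235 for Psmb4. Psmc1 had 711 and 658 reads in ZT6 controls and 525 and 476 in ZT6 mutants, which did not overlap, and at ZT18 its mice had 614 and 723 against 680 and 634, which did.

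The other genes of the pathway were counted in the same fits. Of 33 listed, 32 had a row and passed the filter: the immunoproteasome forms, activators and the inhibitor, further regulatory components, assembly factors, the Nfe2l1 axis, ubiquitin genes and shuttle factors. Paaf1 was not matched. Between genotypes edgeR called 0 of 32 (0.271% of all genes), and 4 had an unadjusted p under 0.05 (6.95% of all genes), among them Nfe2l1 with an estimate of 0.22 ± 0.08, Uchl5 with -0.45 ± 0.21 and Ubb with -0.17 ± 0.08 (log2 fold change ± SE). The immunoproteasome subunits Psmb8, Psmb9 and Psmb10 had estimates of -0.05, 0.22 and 0.02.

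In the ZT6 and ZT18 libraries 1 of the 32 was called, Pomp, the maturation factor that builds the beta rings, with 10 at an unadjusted p under 0.05. Over all genes 16.7% were called and 26.8% had an unadjusted p under 0.05, so the share called in the list was below the background and the unadjusted share near it. Pomp had 468 to 716 reads in these libraries (median 563) and 289 to 527 in the other 16 (median 448). The groups overlapped between 468 and 527, and its log2 fold change was 0.38 ± 0.09 (SE), adjusted p = 0.00234 by edgeR. Nfe2l1 had a log2 fold change of 0.24 ± 0.09 in the same comparison (adjusted p = 0.0557).

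Across the 6 time points edgeR called 2 of the 32, where 13.4% of all genes were called, among them Ubb, which encodes a ubiquitin precursor (adjusted p = 0.0227). Ubb had its lowest mean at ZT14, 3900 ± 489 reads (SD, n = 4), and its highest at ZT18, 5755 ± 550. These are reads without the scaling factors, which were lowest in the ZT14 controls. The ZT18 libraries belong to the group that stood apart in cell markers. Its meta2d p was not under 0.05 in either genotype, and for a difference in rhythm or in time course between genotypes edgeR called 0 of the 32.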

How the data were processed

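The gene table held whole-number normalized read counts, deposited by the authors. By the submitters' processing notes reads were mapped with STAR 2.5.3a to GRCm38, and by the study's methods normalized and quantified per gene with PORT, so the counts are not raw. The counting strand is not given in the sources used here. The members and lists were chosen with earlier results of these data known. Tests covered the 15493 genes that reached 5 reads in 6 or more libraries of either genotype, with edgeR 4.0.16 (quasi-likelihood, TMM, Benjamini-Hochberg over all genes); R was 4.3.3. The meta2d test was rewritten in Python 3.11.15, run on deposited values, with an exact JTK null. Lengths came from GENCODE exons. The main edgeR comparisons and meta2d were tested on simulated data, for edgeR with changes larger than those of the called members. The edgeR cosine, DESeq2, block and i5 fits were not tested in this way. Each library is 1 mouse, so p-values measure spread between mice. For ZT6 and ZT18 against the rest and for the 24-h tests, that spread also holds differences among time points not fitted. Intervals are 95%. Named genes were those past the threshold or the 3 smallest p in each comparison, the catalytic subunits, the extremes of level in each family and pathway genes past the threshold. Alternatives were DESeq2 1.42.0, scaling, filters, replicate block, i5 index, library subsets and single libraries left out. Leaving out both ZT14 controls or mitochondrial genes, coding length and the tests of time within subsets of time points were chosen after seeing the data. One gene of the pathway list is counted but not reported here.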

Additional observations from a re-analysis of the deposited data

How the results depend on the processing

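In each of the settings run, 0 members were called between genotypes, in rhythm difference and in genotype by time. Across the 6 time points (1 member), 2 were called with no scaling factor (2151 of all 15493 genes) and 2 with DESeq2 (Psmd1 added, 2819 of all genes). In that comparison 0 were called with the i5 index as covariate and 0 within the ZT6 and ZT18 libraries or the other 16. Without single libraries 1 to 2 were called (1831 to 2104 of all genes). For ZT6 and ZT18 against the rest (5 members), edgeR called 6 with no scaling factor (Psma6 added, 2774 of all 15493 genes) and 3 with RLE scaling (2553). It called 2 with no filter (2979 of 25174) and 1 with 10 or more reads in every library (1624 of 9863). With the i5 index 1 was called (1003), and without the ZT14 controls 3 (2677 of 15273). In controls alone 1 was called (1064) and in mutants alone 0 (1535). Without single libraries 1 to 6 were called (2352 to 2677 of all genes). Psma7 was called in each of these but the mutants alone. The cause was not tested. Members with a rhythm (0 in each genotype by meta2d) numbered 2 in mutants with the edgeR cosine at an unadjusted p under 0.05 (645 of all 15493 genes). Without single libraries they numbered 0 to 1 in each genotype at a meta2d p under 0.05 (302 to 528 of all genes). Psmb6 between genotypes turned from 0.05 to -0.005 without the ZT14 controls and to -0.0489 in the 16 libraries outside ZT6 and ZT18. Over all genes, calls between genotypes were 42, against 99 with DESeq2, 141 with no filter, 12 without the ZT14 controls and 7 with the i5 index; for genotype by time 2, against 79 with DESeq2 and 183 with no filter; across time 2070, against 1041 with the i5 index; and at ZT6 and ZT18 2595, against 1003 with the i5 index. For genotype by time, the fits with the i5 index and without the ZT14 controls tested 1 term fewer. The core minus regulatory difference between genotypes, 0.03, was -0.0161 without the assembly chaperones and 0.0448 without Psma8 and Psmd10, the last chosen after seeing the data.

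Replicate numbers were not shown to pair the mice: same-numbered mice of different groups had a median correlation of 0.0893, with 31 of 66 group pairs over 0.1. With the replicate number as a block, 5 members were called at ZT6 and ZT18, 1 across time and 0 between genotypes. Over all 15493 genes these fits called 2618, 2070 and 45. At an unadjusted p under 0.05 the edgeR cosine with the block gave 1 member in controls (Psmd3) and 3 in mutants (Psmc4, Psmd2 and Psmd7). Over all genes 630 and 590 passed, and none of the members had an adjusted p under 0.6.

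Psma8, Psmd10 and Psmd9 had the fewest reads of the members tested and the widest intervals between genotypes. Their spread over the control mice was 54.4, 34.3 and 45.5%, where counting error alone would give 15.5, 12.7 and 11.4%.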

Other observations

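The median biological coefficient of variation between mice was 19.9% over the 35 subunit genes and 34.6% over all genes tested (edgeR). Beside genes of like abundance, 19 of the 35 members had a smaller SD between mice of 1 group than the median of the 500 genes nearest in mean level.

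Near copies were annotated for 8 of the 36 genes, 16 copies in all, of which 14 were pseudogenes (at least 95% identity over 300 bases). Their reads came to 28.8% of those of Psma3, 12.6% of Psma5, 9.41% of Psmd11 and 6.5% of Psmc1, and 6.46% of Psma4. The effect of the counting rule on the split between genes and copies was not tested.

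Exons of 8 members overlapped those of a gene on the opposite strand. The longest overlaps were those of Psmd9 with Gm26745, Psmb7 with Nek6 and Psmd13 with Sirt3.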
